A study of Homo sapiens and Mus musculus with 33 samples.

Results

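Sirtuins are deacylases that use NAD+ to take acetyl and longer acyl groups off lysines. The family has 7 genes in human and mouse, SIRT1 to SIRT7, and all 7 were found by symbol among the 35805 genes of the HCT116 RNA table and, in title case, among the 25965 genes of the colon RNA table. Their chromatin was read from every peak in a gene or within 2 kb of it, which gave 11 of 40266 peaks in HCT116 cells, 8 of 30338 H3K18cr peaks in colon and 14 of 27035 H3K4me3 peaks in colon. H3K18cr and H3K18ac are the crotonylated and acetylated forms of lysine 18 of histone H3, and H3K4me3 is trimethylated lysine 4, a mark of promoters.

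The study asked how histone deacetylase inhibition alters H3K18cr and H3K18ac. HCT116 is a human colon carcinoma line, grown here either with the solvent DMSO or with 5 µM MS275 for 18 h. MS275 (entinostat) inhibits class I zinc-dependent deacetylases and is not a sirtuin inhibitor. Each treatment had 4 RNA-seq libraries, 3 H3K18cr and 3 H3K18ac ChIP-seq libraries and 1 input library. Colon epithelium of C57BL/6 mice, untreated, was assayed by RNA-seq of 3 mice, by 2 H3K18cr libraries with 2 inputs, and by 3 H3K4me3 libraries with 1 input. The study describes the colon ChIP material both as pooled colons and as coming from separate mice, so it is unclear whether the 2 H3K18cr libraries share a pool. All HCT116 samples come from 1 cell line. The methods call its RNA replicates biological without saying how they were separated, and nothing in the labels says that replicates were separate cultures, so the p-values measure the spread between these libraries.

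SIRT1, SIRT6 and SIRT7 are mainly nuclear, SIRT2 is mainly cytoplasmic, and SIRT3, SIRT4 and SIRT5 are mitochondrial. Unlike the zinc-dependent deacetylases they consume NAD+ in each reaction, which couples them to the supply of this cofactor. SIRT7 is known as a deacetylase of H3K18ac, and SIRT1, SIRT2 and SIRT3 can remove crotonyl groups in vitro.

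The promoters of 4 human members are shown because they cover the range met below, from a start site under a high peak to one with no peak within 2 kb. The sequences are RefSeq promoters of GRCh38.p14, read 5′ to 3′ on the strand of the gene, and each is the stretch without annotated exons among the 250 bases before a start, so that matches in the rest of a window are not shown. Capitals mark matches, on either strand, to GGGCGG (the GC box), CCAAT (the CCAAT box) and CACGTG (the E-box bound by MYC and other factors); GC boxes can overlap each other.
SIRT1, chr10:67884406-67884655, plus strand: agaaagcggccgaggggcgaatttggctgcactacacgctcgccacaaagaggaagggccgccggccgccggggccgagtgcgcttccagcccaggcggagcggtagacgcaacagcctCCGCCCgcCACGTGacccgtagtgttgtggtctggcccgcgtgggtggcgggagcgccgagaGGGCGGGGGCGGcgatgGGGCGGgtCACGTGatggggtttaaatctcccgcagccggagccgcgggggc
SIRT5, chr6:13574307-13574528, plus strand: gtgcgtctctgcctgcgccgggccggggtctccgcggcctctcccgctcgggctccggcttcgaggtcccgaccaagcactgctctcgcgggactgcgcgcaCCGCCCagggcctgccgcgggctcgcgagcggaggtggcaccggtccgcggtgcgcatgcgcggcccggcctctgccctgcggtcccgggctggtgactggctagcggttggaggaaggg
SIRT6, chr19:4182567-4182688, minus strand: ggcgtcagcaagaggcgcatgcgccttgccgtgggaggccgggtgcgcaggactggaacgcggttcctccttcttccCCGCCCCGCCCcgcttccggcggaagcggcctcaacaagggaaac
SIRT4, chr12:120302071-120302315, plus strand: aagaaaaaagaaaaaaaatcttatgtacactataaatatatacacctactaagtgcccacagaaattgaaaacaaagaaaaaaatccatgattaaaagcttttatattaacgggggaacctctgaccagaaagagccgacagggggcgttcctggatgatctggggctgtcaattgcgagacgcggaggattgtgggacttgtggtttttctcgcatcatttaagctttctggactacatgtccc

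RefSeq promoter windows of 300 bases, from 250 before to 50 after a start, were found for 6 of the 7 human genes, in 9 windows. The SIRT1 window held 4 GC boxes and 2 CACGTG matches. Over 35116 promoter windows, 45.0% held a GC box, 34.6% a CCAAT box and 7.26% CACGTG. The outer SIRT6 window held 4 GC boxes and 1 CCAAT box, and the SIRT3 window held 1 GC box. Both SIRT4 windows held none of the 3 motifs. CG dinucleotides were densest at SIRT1, with 39 in its window against a median of 14 over all windows, and sparsest at the SIRT4 window shown, with 9.

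The RNA libraries held 35608533 to 53415604 counts in HCT116 cells and 8166406 to 10707901 in colon. The 2 HCT116 libraries with replicate number 3 stood apart. Their Spearman correlation with libraries of other numbers averaged 0.943 (DMSO) and 0.950 (MS275) over 14961 genes, against 0.961 to 0.973 for the other 6 libraries. Of 8 epithelial markers, 5 in DMSO, 6 in MS275 and 8 in colon averaged at least 1 CPM (counts scaled to a common library size), while LGALS4 was at 0 in every DMSO library. The summed CPM of 6 immune markers was 5.81 to 8.82 in DMSO and 4.53 to 11.3 in MS275. The summed CPM of 7 stromal markers was 11.1 to 13.9 in DMSO and 21.8 to 25.8 in MS275, with 3 of the 7 at 1 CPM or more in each group and PDGFRA at 0 in DMSO. The part of this difference in the sirtuin values was not tested. In colon, 4 of the 6 immune and 4 of the 7 stromal markers were in the table, with sums of 18.9 to 27.6 and 20.9 to 37.7 CPM and with Pdgfra at 0.

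None of the 7 sirtuin RNAs changed beyond the spread between libraries when HCT116 cells were treated with MS275. By edgeR's quasi-likelihood test with Benjamini-Hochberg adjustment over 14961 genes, 0 of 7 sirtuins had an adjusted p under 0.05, and 0 of 7 had an unadjusted p under 0.05. The same test called 0.00668% of all genes (1 gene). DESeq2 called 0 of 7 sirtuins as well, beside 0.936% of all genes. Same-numbered libraries deviated together, although libraries of numbers 2 and 4 also did so across the treatments, so the pairing is not certain. A fit that pairs same-numbered libraries (a replicate block) called 0 of 7 sirtuins by edgeR, beside 14.4% of all genes, and 0 of 7 by DESeq2, beside 19.1%. Under the block SIRT1 and SIRT5 had unadjusted p under 0.05, in edgeR and in DESeq2, and neither passed the adjustment. The share of 2 of 7 is near that of all genes, 29.2% in edgeR and 31.0% in DESeq2.

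**Figure D1:**
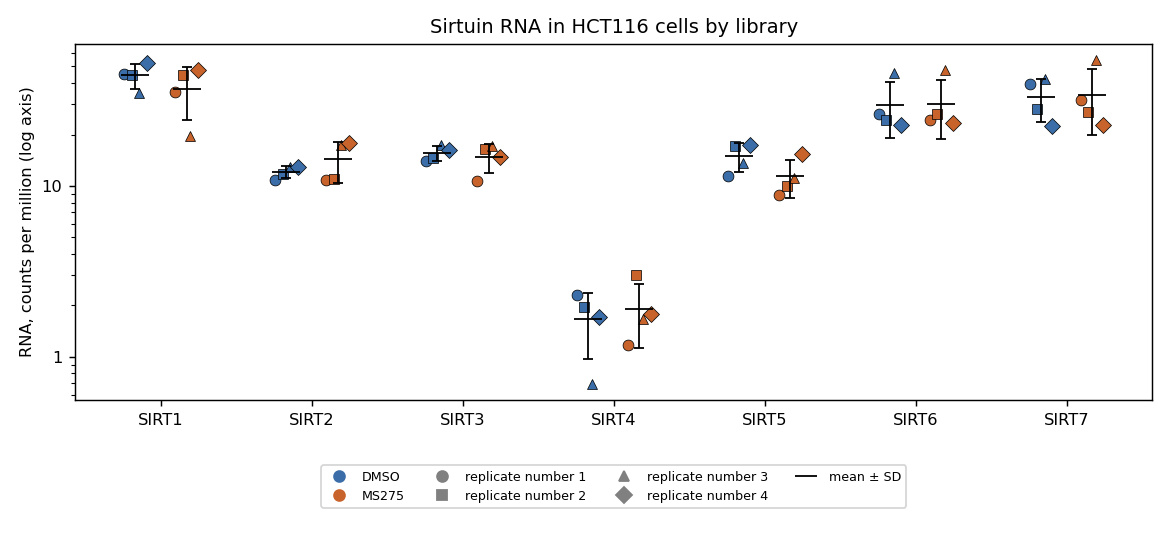
RNA of each sirtuin in the 8 HCT116 libraries, in CPM on a log axis, with DMSO in blue, MS275 in orange, the replicate number as the shape, and the mean ± SD as bars. The DMSO and MS275 points overlap for all 7 genes, and the triangles of replicate number 3 lie low for SIRT1 and high for SIRT6 in both treatments.

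Among the nuclear sirtuins, SIRT1, a deacetylase of p53 and of FOXO factors, was at 45.4, 44.6, 34.9 and 52.3 CPM in DMSO replicates 1 to 4. In MS275 it was at 35.4, 44.8, 19.7 and 47.8 CPM. The groups overlapped, and the lowest library of each was number 3. The log2 fold change was -0.26 (SE 0.26, 95% interval -0.85 to 0.32, edgeR adjusted p = 0.933), and without MS275 replicate 3 it was -0.05. With the replicate block it was -0.32 (SE 0.13, 95% interval -0.60 to -0.04, edgeR adjusted p = 0.116). SIRT1 was lower with MS275 in 3 of 4 pairs, and without pair 3 its blocked log2 fold change was -0.17.

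SIRT6, a chromatin-bound deacetylase with roles in DNA repair, was at 26.4, 24.4, 45.7 and 22.9 CPM in DMSO and at 24.3, 26.3, 47.6 and 23.3 CPM in MS275. Replicate number 3 was far above the other 3 libraries in both groups, and apart from it the groups covered the same range. The blocked log2 fold change was 0.02 (SE 0.11, 95% interval -0.21 to 0.25, edgeR adjusted p = 0.941). This interval leaves room for a rise or a fall of up to about 0.25 on the log2 scale.

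SIRT7, which acts in the nucleolus, was at 39.5, 28.1, 42.0 and 22.5 CPM in DMSO and at 31.8, 27.2, 54.4 and 22.7 CPM in MS275. The highest library of each treatment was again number 3. Its blocked log2 fold change was 0.01 (SE 0.12, 95% interval -0.26 to 0.27, edgeR adjusted p = 0.979). Over the 8 libraries log2 CPM of SIRT6 and SIRT7 correlated at r = 0.857, and that of SIRT7 and SIRT1 at r = -0.842. Without the 2 libraries of number 3 these values were 0.751 and -0.525 (n = 6). These libraries share treatment and replicate number, so the values only describe them.

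SIRT2, which deacetylates tubulin in the cytoplasm, was at 10.8, 11.8, 12.98 and 12.9 CPM in DMSO and at 10.9, 11.03, 17.4 and 17.8 CPM in MS275. MS275 replicates 3 and 4 were above every DMSO library, and replicates 1 and 2 lay within the DMSO range. The log2 fold change was 0.24 (SE 0.23, 95% interval -0.27 to 0.75, edgeR adjusted p = 0.929), and without MS275 replicate 3 or 4 it was 0.13 and 0.11. With the block it was 0.20 (SE 0.16, edgeR adjusted p = 0.451), and without pair 3 or 4 it was 0.12 and 0.11.

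Of the mitochondrial sirtuins, SIRT5 came nearest to a change. SIRT5, which removes succinyl, malonyl and glutaryl groups, was at 11.4, 17.2, 13.7 and 17.5 CPM in DMSO and at 8.89, 9.99, 11.2 and 15.4 CPM in MS275. MS275 was below DMSO in 4 of 4 pairs, but the groups overlapped, since MS275 replicate 4 was above DMSO replicates 1 and 3. The log2 fold change was -0.39 (SE 0.24, edgeR adjusted p = 0.860), and with the block it was -0.40 (SE 0.16, 95% interval -0.75 to -0.06, edgeR adjusted p = 0.111). Of its exon bases 9.37% overlap an antisense gene, ENSG00000261071, and reads of the 2 genes cannot be told apart if strand was not used in counting.

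SIRT3, the main mitochondrial deacetylase, was at 14.0, 14.6, 17.4 and 16.3 CPM in DMSO and at 10.7, 16.4, 17.1 and 14.7 CPM in MS275. Its groups overlapped, with a log2 fold change of -0.08 (SE 0.21, edgeR adjusted p = 0.986). SIRT4, known as a lipoamidase and ADP-ribosyltransferase, was the scarcest, with 24 to 124 counts per library. It was at 2.30, 1.95, 0.694 and 1.72 CPM in DMSO and at 1.18, 3.00, 1.66 and 1.78 CPM in MS275. Its log2 fold change was 0.19 with the widest error of the 7 (SE 0.54, 95% interval -1.002 to 1.38, edgeR adjusted p = 0.987). This interval leaves room for a sizable rise or fall.

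**Figure D2:**
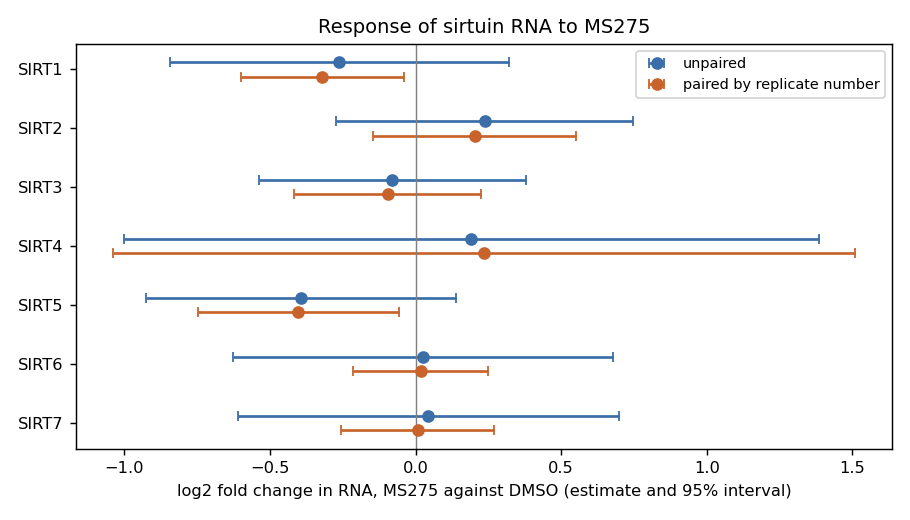
Log2 fold change of sirtuin RNA, MS275 against DMSO, with its 95% interval, from the unpaired edgeR fit in blue and the fit paired by replicate number in orange. Pairing narrows the intervals of 6 of the 7 genes, and SIRT1 and SIRT5 are the 2 whose paired interval lies below 0, before adjustment for 14961 genes.

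Genes that supply the NAD+ of sirtuins, consume it, regulate sirtuins or are their targets were also read from the RNA data. In the unpaired fit 0 of the 49 tested members of 6 lists were called, with 3 at an unadjusted p under 0.05 by edgeR and 0 called by DESeq2. With the replicate block 10 were called, 5 higher and 5 lower, beside 14.4% of all genes. Without the pairs of numbers 1 to 4, 5, 3, 8 and 3 were called, beside 6.43%, 6.54%, 17.2% and 6.87% of all genes. Of 10 tested genes of NAD+ supply and 4 of other NAD+ consumption, 0 were called in either edgeR fit, and 1 and 0 had an unadjusted p under 0.05 with the block. Their median log2 fold changes with the block were 0.03 and 0.01, beside 0.01 over all genes tested.

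Of the nuclear targets and partners, 4 of 9 were called higher and 2 lower with the block, beside 7.83% and 6.55% of all genes. Their median log2 fold change was 0.22. UBTF, a factor of ribosomal RNA transcription, was at 138 to 190 CPM in DMSO and 84.6 to 121 in MS275, lower in 4 of 4 pairs (log2 fold change -0.65, SE 0.07, edgeR adjusted p = 2.285e-04). FOXO3, a transcription factor deacetylated by SIRT1, was at 21.9 to 73.0 CPM in DMSO and 37.8 to 91.4 in MS275, higher in 4 of 4 pairs although the groups overlapped (log2 fold change 0.58, SE 0.10, edgeR adjusted p = 0.00269). The tubulin gene TUBA1A and FOXO4 were also higher in 4 of 4 pairs, with log2 fold changes of 0.78 (SE 0.17, edgeR adjusted p = 0.00973) and 0.62 (SE 0.17, edgeR adjusted p = 0.0323).

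Among 8 tested regulators of sirtuins, 1 was called lower with the block, RPS19BP1 (AROS), an activator of SIRT1, at a log2 fold change of -0.39 (SE 0.10, edgeR adjusted p = 0.0241). Its groups overlapped, at 59.4 to 183 CPM in DMSO and 42.5 to 162 in MS275. The list's median was -0.16. Of 7 tested mitochondrial targets, PDHA1, a subunit of pyruvate dehydrogenase, was lower (-0.24, SE 0.07, edgeR adjusted p = 0.0455), and the median was -0.09. All 11 zinc-dependent deacetylases were tested, of which HDAC7 was lower (-0.46, SE 0.13, edgeR adjusted p = 0.0290) and HDAC5 higher (0.32, SE 0.10, edgeR adjusted p = 0.0445). These counts of 1 of 8, 1 of 7 and 2 of 11 stand beside 14.4% of all genes called with the block. The median of the zinc-dependent deacetylases was 0.06, and that of the 7 sirtuins 0.01. The difference between these lists was not tested.

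The genes whose log2 CPM ran most like that of SIRT5 over the 8 libraries, among 14960 others, were GPR110 (r = 0.960), PTGR2 (r = 0.957) and C12orf76 (r = 0.956). They are named because SIRT5 had the smallest p of the 7 sirtuins in the edgeR fit with the block (0.0258, with SIRT1 at 0.0276). In DESeq2 with the block SIRT1 had the smaller p (0.0215 against 0.0352). Being the highest of 14960 correlations over 8 libraries that share treatment and replicate number, the r values only describe these libraries.

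Levels were compared between genes as CPM per kb of exon. In DMSO, SIRT6 and SIRT1 stood highest, at 10.8 ± 3.87 and 9.71 ± 1.57 CPM per kb (SD, n = 4), above 70.8% and 68.2% of 12541 expressed genes. SIRT7 followed at 5.38 ± 1.51, SIRT3 at 2.80 ± 0.286, SIRT2 at 1.95 ± 0.166, SIRT4 at 1.363 ± 0.565 and SIRT5 at 1.32 ± 0.259. Of the 6 pairs of neighbours in this order, 3 did not overlap, which set apart SIRT1 from SIRT7, SIRT7 from SIRT3 and SIRT3 from SIRT2. SIRT6 and SIRT1 overlapped, and SIRT6 was the higher in 1 of 4 libraries only. SIRT4 and SIRT5 also overlapped, with SIRT4 the higher in 2 of 4 libraries, and they changed places when the longest transcript was used as the length. With that length SIRT6 and SIRT1 did not overlap in DMSO, SIRT1 and SIRT7 did, and SIRT7 came above SIRT1 in MS275. The order with MS275 was the same, with 1 of 6 pairs apart, SIRT7 and SIRT3.

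The colon epithelium held another order. Sirt7 was the highest at 16.1 ± 0.538 CPM per kb (SD, n = 3), above 70.1% of 11008 expressed genes, with 79.5, 83.7 and 84.7 CPM in mice 1 to 3. Sirt2 came second at 10.6 ± 0.850 with 51.0, 50.6 and 58.2 CPM, and Sirt6 followed at 8.98 ± 1.56 with 21.0, 24.4 and 29.6 CPM. Sirt7 did not overlap Sirt2, while Sirt2 and Sirt6 overlapped.

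Sirt4, Sirt3 and Sirt1 formed a middle group, at 4.29 ± 0.527, 3.82 ± 0.134 and 3.34 ± 0.389 CPM per kb, and each overlapped its neighbour. Sirt1 was at 15.9, 20.02 and 17.6 CPM, Sirt3 at 22.3, 22.5 and 23.8 CPM and Sirt4 at 11.1, 10.9 and 8.83 CPM. Sirt5 was the lowest in colon, at 1.51 ± 0.249 CPM per kb, with 9.90, 10.2 and 7.46 CPM, and did not overlap Sirt1. Of the Sirt3 exon bases 12.7% lie under exons of Psmd13 and Ric8a on the other strand, and strand use in counting is not stated. The separations in colon depend on the length used. With the longest transcript Sirt7 and Sirt2 overlapped, as did Sirt1 and Sirt5, while Sirt2 stood apart from Sirt6, Sirt3 came above Sirt4, and Sirt3, Sirt4 and Sirt1 no longer overlapped their neighbours in the middle group. The human and mouse tables were normalized separately, so the orders stand side by side and no level was compared across them.

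**Figure D3:**
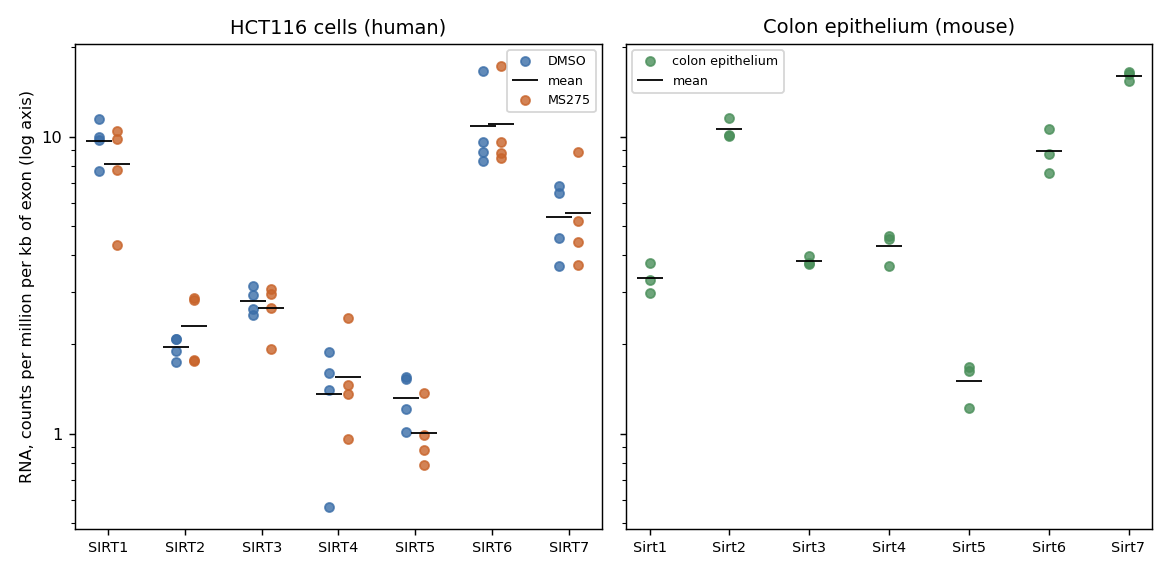
Sirtuin RNA per library as CPM per kb of exon on a log axis, in HCT116 cells (left, DMSO in blue and MS275 in orange) and in mouse colon epithelium (right), with the mean as a bar. SIRT6 and SIRT1 lead in HCT116 cells with means of 10.8 and 9.71 in DMSO, while Sirt7 leads in colon with 16.1 and Sirt1 is at 3.34.

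The share of H3K18cr and H3K18ac reads at several sirtuin genes fell with MS275. Values scaled to library size give each peak's share of the reads of a mark, and do not measure how much of the mark the cells held in all. With MS275 the paper reported more histone crotonylation by western blot, and more H3K18cr at tested promoters and repeats by ChIP-qPCR. Of the 11 HCT116 peaks, SIRT1, SIRT3 and SIRT6 had 1 each, SIRT5 had 2, SIRT2 and SIRT7 had 3 each, and SIRT4 had none. Peaks are numbered along each gene from its start. By limma on the deposited log2 values, H3K18cr fell in 5 of 11 peaks, beside 23.0% of 40026 peaks tested. H3K18ac also fell in 5 of 11, beside 16.3% of 40122 peaks. H3K18ac fell in 3, 1 and 2 of 11 when DMSO replicate 2, MS275 replicate 2 or MS275 replicate 3 was left out, beside 7.57%, 3.58% and 4.71% of all peaks, and H3K18cr in 9 of 11 without DMSO replicate 3. With same-numbered libraries paired, 0 of 11 were called for H3K18ac and 5 of 11 for H3K18cr, beside 2.01% and 26.1% of all peaks called lower. For both marks the 5 peaks called with all libraries and no pairing were those over the starts of SIRT1, SIRT2, SIRT3 and SIRT5 and over the 3′ end of SIRT5. In the same fits 0 of 11 rose, beside 0.232% (H3K18cr) and 0.264% (H3K18ac) of all peaks. For each mark 6 of 11 had an unadjusted p under 0.05, beside 31.9% (H3K18cr) and 26.5% (H3K18ac) of all peaks.

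The background at start sites was higher. Of all peaks within 1 kb of a start site of a protein-coding transcript, H3K18cr fell in 55.1% and H3K18ac in 43.1%, with median log2 changes of -0.54 and -0.60, and 67.4% and 59.5% had an unadjusted p under 0.05. Among the sirtuin peaks, 7 lay within 1 kb of a start of their own gene, and 4 of these 7 fell for each mark, a share near that background. Counting starts of any protein-coding gene, as the background does, all 11 peaks but SIRT2 peak 2 lay within 1 kb of a start. The 5 of 11 that fell for each mark therefore compare with 55.1% and 43.1% more closely than with the shares of all peaks. The median over the 11 peaks was -0.43 for H3K18cr and -0.60 for H3K18ac. The median H3K18cr change of all peaks was -0.20 in the deposited scaling and 0.05 with TMM over all peaks, and that of H3K18ac was -0.19 and 0.07, so the changes given below are relative to the deposited scaling. With TMM, 4 of 11 sirtuin peaks were called lower for H3K18cr (11.0% of all peaks) and 5 for H3K18ac (16.5%). Near start sites TMM called 29.4% and 43.6% of all peaks lower. The falls over SIRT1, SIRT3 and both SIRT5 peaks were smaller with TMM, at -0.53 to -0.77 for H3K18cr and -0.51 to -0.83 for H3K18ac, and still called. The fall over the SIRT2 start was then called for H3K18ac only (H3K18cr log2 change -0.47, limma adjusted p = 0.126). On recovered reads, edgeR called the same 4 and 5 peaks lower (11.5% and 16.6% of all peaks) and DESeq2 did as well (8.47% and 13.2%), giving no adjusted p for SIRT2 peaks 2 and 3 in H3K18cr and for peak 2 in H3K18ac.

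**Figure D4:**
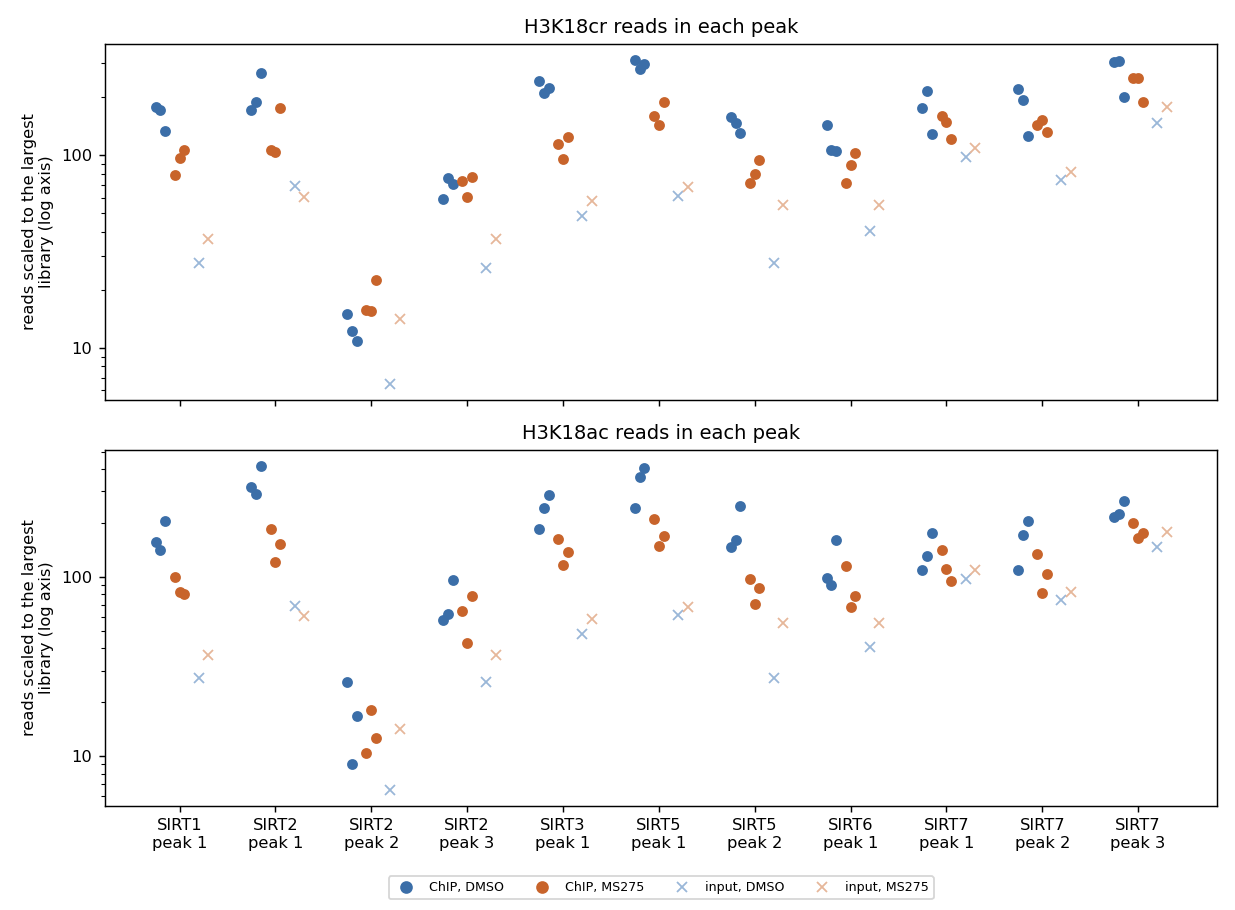
Reads in each of the 11 HCT116 peaks, scaled to the largest library and drawn on a log axis, for H3K18cr (top) and H3K18ac (bottom), with DMSO in blue, MS275 in orange and the 2 inputs as crosses. MS275 points lie below all DMSO points at SIRT1, SIRT3 and both SIRT5 peaks for both marks, while at the SIRT7 peaks the H3K18cr points overlap.

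The largest fall of H3K18cr was at SIRT3, in a peak (chr11:235351-238200, GRCh38) that covers the starts of SIRT3 and of its divergent neighbour PSMD13. It held 243, 208.8 and 223 scaled reads in DMSO and 115, 94.9 and 124 in MS275. All MS275 libraries were below all DMSO libraries, with a log2 change of -1.02 (SE 0.17, limma adjusted p = 7.801e-05). Only 4.31% of peaks near start sites fell further. H3K18ac there was at 186, 243 and 285 scaled reads in DMSO and at 164, 117 and 137 in MS275. This fall, of -0.76 (SE 0.25, limma adjusted p = 0.0215), was no longer called when DMSO replicate 2 or 3 or MS275 replicate 2 or 3 was left out, with log2 changes of -0.74, -0.62, -0.64 and -0.76 and adjusted p of 0.145, 0.0684, 0.257 and 0.144.

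The SIRT1 peak (chr10:67883701-67885950) covers the promoter printed above. Its H3K18cr was at 178, 171 and 133 scaled reads in DMSO and at 78.7, 96.3 and 107 in MS275, a log2 change of -0.77 (SE 0.18, limma adjusted p = 0.00191). H3K18ac was at 157, 142 and 205 in DMSO and at 100.0, 82.5 and 80.7 in MS275, a change of -0.93 (SE 0.25, limma adjusted p = 0.00381). The groups did not overlap for either mark, which also held for 29.8% (H3K18cr) and 23.0% (H3K18ac) of all peaks, and for 61.8% and 49.9% of those near a start site. Without MS275 replicate 2 or 3 the H3K18ac call was lost, with log2 changes of -0.89 and -0.87 and adjusted p of 0.0748 and 0.0744.

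At SIRT5 the start peak (chr6:13573201-13576950) held the most H3K18cr reads of the start peaks, at 311, 279.8 and 299 scaled reads in DMSO and 159.7, 143 and 188 in MS275. The log2 change was -0.87 (SE 0.16, limma adjusted p = 2.368e-04). H3K18ac was at 242, 359 and 406 in DMSO and at 209, 149 and 169 in MS275, a change of -0.92 (SE 0.25, limma adjusted p = 0.00439). In every MS275 library both marks were below every DMSO library. The H3K18ac call was lost without DMSO replicate 2 or MS275 replicate 2 or 3. The log2 changes were then -0.85, -0.80 and -0.90, with adjusted p of 0.0828, 0.130 and 0.0755.

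The other SIRT5 peak (chr6:13614151-13616550) lies over the 3′ end of the gene and the start of NOL7. Its H3K18cr fell from 158, 146 and 129.9 scaled reads to 72.0, 79.3 and 94.0, a log2 change of -0.83 (SE 0.18, limma adjusted p = 9.716e-04). H3K18ac fell from 146, 159.9 and 249.7 to 97.4, 70.9 and 87.0, a change of -1.09 (SE 0.25, limma adjusted p = 6.198e-04), and lost its call without MS275 replicate 2 (adjusted p = 0.0507). The single input of each treatment differed at this peak, with 27.4 scaled reads in DMSO and 55.2 in MS275.

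SIRT2 had the strongest fall of H3K18ac, in its start peak (chr19:38898001-38901300), which also covers the start of NFKBIB. H3K18ac was at 318, 291 and 415 scaled reads in DMSO and at 184, 120.4 and 153 in MS275, with no overlap and a log2 change of -1.17 (SE 0.25, limma adjusted p = 2.774e-04). H3K18cr was at 171, 188 and 266 in DMSO and at 107, 103 and 175 in MS275. Here the groups overlapped, MS275 replicate 3 lying above DMSO replicate 1. The change was -0.72 (SE 0.20, limma adjusted p = 0.00690). Without MS275 replicate 1 or 2 it was -0.60 and -0.58 and was not called (adjusted p of 0.0661 and 0.0774).

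The other SIRT2 peaks were not called lower for either mark. Peak 2 (chr19:38883451-38883900), inside the gene, was the smallest of the 11. Its H3K18cr was at 15.0, 12.3 and 10.8 scaled reads in DMSO and at 15.8, 15.6 and 22.4 in MS275, with MS275 above DMSO in all libraries and a log2 change of 0.49 that did not pass the test (SE 0.36, limma adjusted p = 0.403). Peak 3 (chr19:38877001-38879100), over the 3′ end and the start of RINL, was at 59.0 to 76.4 scaled reads in DMSO and 60.9 to 77.2 in MS275, a log2 change of 0.03 (SE 0.20, limma adjusted p = 0.947). For H3K18ac the 2 peaks had log2 changes of -0.24 and -0.22, neither called.

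The peak over the starts of SIRT6 and ANKRD24 (chr19:4180951-4183650) was lower than those of the 4 genes above, with 43.9 scaled H3K18cr reads per kb in DMSO, more than 27.2% of peaks near a start site. H3K18cr was at 144, 106.5 and 105 scaled reads in DMSO and at 72.0, 89.2 and 102.4 in MS275, below DMSO in all libraries. The log2 change was -0.43 and did not pass the adjustment (SE 0.19, 95% interval -0.82 to -0.04, limma adjusted p = 0.108). H3K18ac was at 98.5, 90.5 and 159.6 in DMSO and at 114, 67.6 and 78.6 in MS275, with overlap and a change of -0.41 (SE 0.25, limma adjusted p = 0.310).

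SIRT7 had 3 peaks, none of them over the start of its gene interval. Peak 1 (chr17:81921901-81925650) lies just upstream and covers a start of MAFG, peak 2 (chr17:81915451-81918450) lies inside SIRT7 over 1 annotated start, and peak 3 (chr17:81909151-81915450) covers its 3′ end and the start of PCYT2. H3K18cr changed by -0.26, -0.30 and -0.22 on the log2 scale in peaks 1 to 3, and the limma adjusted p were 0.393, 0.298 and 0.452. In peak 2 it was at 220.0, 194 and 125 scaled reads in DMSO and 144, 152 and 132 in MS275, with DMSO replicate 3 below every MS275 library. Without DMSO replicate 3 the H3K18cr changes in peaks 1 to 3 were -0.46, -0.54 and -0.42. All 3 peaks and the SIRT6 peak were then called lower, so that 9 of 11 peaks fell, beside 31.3% of all peaks and 69.2% of those near a start site in the same fit. Peak 1 was at -0.08 without DMSO replicate 2, peak 2 at -0.13 without DMSO replicate 1 and peak 3 at -0.08 without MS275 replicate 3. H3K18ac changed by -0.26, -0.59 and -0.39, with limma adjusted p of 0.598, 0.0927 and 0.358. The fall in peak 2 was called without DMSO replicate 1 (-0.85, adjusted p = 0.00811) or without MS275 replicate 1 (-0.78, adjusted p = 0.0311). With TMM the H3K18cr changes of the 3 SIRT7 peaks were -0.01, -0.06 and 0.02.

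Enrichment over input varied among the sirtuin peaks. At SIRT7 the log2 ratio of H3K18cr to input in DMSO, with 1 read added, lay between 0.39 and 1.55 over the 3 peaks and 3 libraries, and overlapped that of SIRT2 peak 2 (0.65 to 1.09), SIRT2 peak 3 (1.15 to 1.52), the SIRT2 start (1.29 to 1.93) and SIRT6 (1.358 to 1.81). It was 2.24 to 2.66 at SIRT1 and 2.17 to 2.33 at the SIRT5 start. The median over all peaks near a start site was 1.43 to 1.74 in the same libraries. In MS275 the ratio was 1.08 to 1.51 at SIRT1, 1.06 to 1.46 at the SIRT5 start and 0.70 to 1.08 at SIRT3, where it had been 2.09 to 2.31 in DMSO. The median of all peaks near a start site was then 1.09 to 1.22. These ratios rest on 1 input per treatment.

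SIRT4 was the one member with no HCT116 peak within 2 kb of the deposited gene interval, which begins at chr12:120302316. Its other RefSeq window (chr12:120291939-120292238) lies more than 5 kb upstream of that interval, where peaks were not looked for. The nearest, within 5 kb of the gene, was chr12:120316501-120317850, with 64.9 ± 25.8 scaled H3K18cr reads in DMSO (SD, n = 3).

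**Figure D5:**
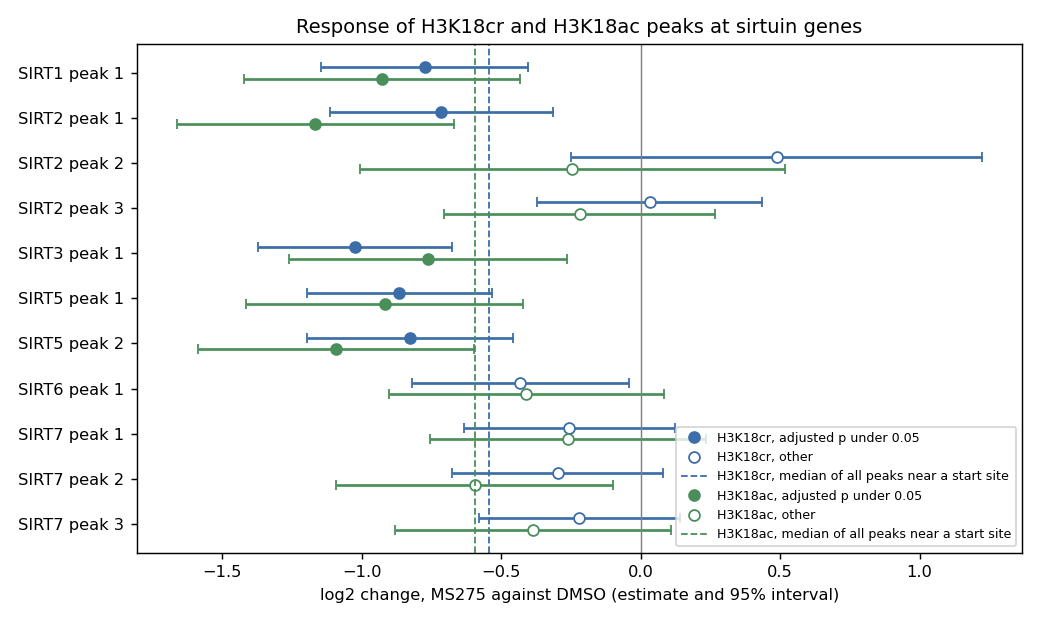
Log2 change of H3K18cr (blue) and H3K18ac (green) with MS275 in the 11 HCT116 peaks, with 95% intervals, filled points for an adjusted p under 0.05 and dashed lines at the median of all peaks near a start site (-0.54 and -0.60). The 5 called peaks of SIRT1, SIRT2, SIRT3 and SIRT5 lie left of the dashed lines for both marks, and the SIRT6 and SIRT7 peaks lie on or right of them.

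No sirtuin peak differed detectably between the marks in its response. The difference between the marks in the response to MS275, an interaction term in limma, was called in 0 of 11 peaks, with 0 of 11 at an unadjusted p under 0.05, and in 0 of all 40266 peaks (0.0%), of which 739 had an unadjusted p under 0.05. The difference ranged from -0.26 at SIRT3 (95% interval -0.85 to 0.33) to 0.73 at SIRT2 peak 2 (95% interval -0.35 to 1.82). Both ends moved when 1 replicate number was left out, to 0.06 and -0.49 at SIRT3 without numbers 1 and 3, and to 1.43 and 0.37 at SIRT2 peak 2 without numbers 2 and 3. At the SIRT2 start it was 0.45 (95% interval -0.18 to 1.09). Such intervals leave room for differences of more than 0.5 at these peaks.

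In colon, the 8 H3K18cr peaks of the sirtuin genes each overlapped an H3K4me3 peak, as did 41.2% of all H3K18cr peaks and 90.3% of those within 1 kb of a start site. Of the 14 H3K4me3 peaks, 9 overlapped an H3K18cr peak, beside 45.7% of all H3K4me3 peaks and 69.4% of those near a start site. The 5 without H3K18cr were 2 inside Sirt2, 1 inside Sirt4, 1 inside Sirt7 over an annotated start and 1 upstream of Sirt7. Those 5 peaks had a mean H3K4me3 between 43.1 and 71.3 scaled reads, and the 9 overlapping ones between 26.2 at the Sirt4 start and 358 at the Sirt7 start, so the ranges overlapped.

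Of the 8 colon H3K18cr peaks within 2 kb, the highest was at Sirt1 (chr10:63338101-63340050, GRCm38), over 2 of its annotated starts, with 160.6 and 344 scaled reads in the 2 libraries and log2 ratios to input of 1.78 and 2.24. Its H3K18cr per kb was above 94.1% of peaks near a start site, while of the sirtuin RNAs only that of Sirt5 was lower per kb. H3K4me3 in the overlapping peak was at 191, 246 and 399 scaled reads, with log2 ratios to input of 2.09, 2.46 and 3.15. A further Sirt1 peak (chr10:63381751-63382950), by the start of a longer transcript and over the start of Dnajc12, was at 73.1 and 103.8 scaled H3K18cr reads.

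Sirt7, whose RNA was the highest, had less H3K18cr at its start (chr11:120624001-120625650), with 101.8 and 149 scaled reads and log2 ratios of 1.13 and 0.90. Its H3K18cr per kb exceeded that of 23.6% of peaks near a start site. The H3K4me3 peak there had the highest mean of the family, at 200, 379.8 and 494 scaled reads, close to Sirt1 in library 1 and above it in the others, with log2 ratios of 2.65, 3.57 and 3.95. A second H3K18cr peak, chr11:120616351-120618000 over the start of Pcyt2, was at 98.6 and 178 scaled reads.

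The Sirt6 start (chr10:81626701-81628500) was at 138 and 198 scaled H3K18cr reads, with log2 ratios of 1.54 and 1.64. The Sirt3 start (chr7:140881051-140882550), shared with Psmd13, was at 84.3 and 164, with ratios of 1.24 and 1.21. Sirt2, at chr7:28765801-28767300 over the start of Nfkbib as well, was at 82.7 and 122, with ratios of 0.61 and 1.34. Sirt4 (chr5:115483801-115485300) was the least dense in H3K18cr, at 73.1 and 122 scaled reads, above 3.51% of peaks near a start site. A further peak upstream of Sirt4, outside 2 kb but within 5 kb (chr5:115488751-115491000), was at 324 and 516 scaled reads, more than the Sirt1 peak, with log2 ratios of 2.37 and 2.24. At the Sirt4 start H3K4me3 was at 11.5, 26.8 and 40.5 scaled reads. In all of these H3K18cr peaks library 2 held more scaled reads than library 1, and with 2 libraries the order of the peaks was not tested.

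Sirt5 had 0 peaks within 2 kb of the gene interval of the deposited table, which begins at chr13:43370710. The GENCODE M21 gene begins at chr13:43365496, and a peak at chr13:43365001-43366500 covers 5 of its annotated starts, outside the 2 kb used but within 5 kb of the deposited interval. It was at 158 ± 32.8 scaled H3K18cr reads (SD, n = 2) with log2 ratios to input of 1.80 and 1.83. H3K4me3 in the overlapping peak had log2 ratios of 2.36, 2.84 and 3.78.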

How the data were processed

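RNA was measured in 8 HCT116 and 3 mouse colon libraries, and H3K18cr, H3K18ac or H3K4me3 with inputs in 22 ChIP-seq libraries. The gene tables hold read counts per gene as the authors deposited them. For colon peaks the authors deposited a signal, the reads scaled to the largest library, and for HCT116 peaks they deposited the log2 of such values, with 0.9 read in place of 0. In all 22 libraries 100% of values were whole reads (within 0.02 read) times 1 factor, so reads were recovered for count tests, in which edgeR called 5511 peaks for H3K18cr and 8524 for H3K18ac. Per the labels, reads were trimmed with Trim Galore 0.4.2 and mapped with Bowtie2 2.2.5 or TopHat2 2.0.12, while the methods name HiSat2 for RNA. Peaks were called once per table with MACS in SEQMONK, so all libraries of a table share 1 list. Strand use in counting is not stated. 0 columns of sample values were left unmapped.

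Counts were tested with edgeR 4.0.16 (quasi-likelihood, TMM, filterByExpr), with DESeq2 1.42.0 as an alternative, and peaks with limma 3.58.1 (eBayes with trend) where at least 3 libraries had 10 scaled reads, in R 4.3.3, all adjusted over every feature tested. Calls were made at an adjusted p under 0.05. 95% intervals use the degrees of freedom of each fit, and the SE of edgeR comes from its F statistic. TMM-scaled CPM was divided by the kb of all exons in GENCODE 44 (GRCh38) or M21 (GRCm38). Likeness was Pearson's r of log2(CPM + 0.1). Tables and plots used Python 3.11.15, scipy 1.17.1, numpy 2.4.6, pandas 2.3.3 and matplotlib 3.10.9. The edgeR, limma and DESeq2 functions were tested on simulated data.

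Same-numbered RNA libraries deviated together (r = 0.226, 0.151, 0.434 and 0.460), so the numbers were taken as pairs, a pairing found from the data as the labels give no shared culture or day. This pairing is not certain. DMSO replicate 2 with MS275 replicate 4 (r = 0.239) and DMSO replicate 4 with MS275 replicate 2 (r = 0.219) were above the value of pair 2. For H3K18cr (0.108, 0.0729 and 0.229) and H3K18ac (-0.207, 0.0464 and -0.134) not every value was over 0.1, so these numbers were not taken as pairs. Reads in peaks numbered 2236551 to 5730094 per HCT116 ChIP library and 1105419 to 3451663 per colon library. Scaled reads carry counting error, and PCR duplicates were removed by the authors.

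The members and the gene lists were chosen with earlier results of these data known. Named genes are the 7 sirtuins, of each list at most 4 members called with or without the block, the 3 genes most like SIRT5, and all peaks within 2 kb. Alternatives were other scalings, tools, filters, distances, the replicate block and leaving out each library. Protein sequences were not used here. The levels of single immune markers are not reported here.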

Additional observations from a re-analysis of the deposited data

Results flagged for a closer look

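In the 14 groups of 4 RNA libraries (7 sirtuins in DMSO and in MS275), 2 had a library apart by Dixon's test at the 95% level, where chance flags about 1 in 20 groups. SIRT6 was at 45.65 CPM in DMSO replicate 3, and its gap to the next library was 0.844 of the range of the group. SIRT6 was at 47.57 CPM in MS275 replicate 3, with a gap of 0.875 of the range. Both are libraries of number 3, which correlated less with the other numbers over all genes. SIRT6 did not differ detectably between treatments with these libraries (blocked log2 fold change 0.02) or without the pair (-0.01, edgeR adjusted p = 0.984).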

How the results depend on the processing

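The count of 0 called sirtuin RNAs held under all alternatives, and 0 of 11 peaks differed between the marks under each alternative tried. Of the values of single sirtuin RNAs under alternatives, 104 kept their direction and 15 reversed. None of these RNAs was called. SIRT7 was at -0.000351 with DESeq2 and the replicate block. Pairing by the replicate block without number 2 or 3 put SIRT6 at -0.025 and -0.0055, and without number 3 put SIRT4 at -0.099 and SIRT7 at -0.13. Leaving out 1 library gave -0.41 to -0.055 for SIRT1, -0.16 to 0.045 for SIRT3, -0.14 to 0.39 for SIRT4, -0.28 to 0.30 for SIRT6 and -0.28 to 0.19 for SIRT7. Members of the related lists that were called numbered 0 unpaired, 10 with the replicate block, 12 with DESeq2 and the block, and 5, 3, 8 and 3 with the block and without numbers 1 to 4. The block changed no sirtuin call.

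Leaving out 1 library gave 4 to 9 called H3K18cr peaks and 1 to 6 called H3K18ac peaks. With the replicate block, although the ChIP numbers were not taken as pairs (correlations of 0.108, 0.0729 and 0.229 for H3K18cr and -0.207, 0.0464 and -0.134 for H3K18ac), 5 H3K18cr and 0 H3K18ac peaks were called, beside 26.1% and 2.01% of all peaks called lower, and with TMM and the block 5 and 5, beside 17.7% and 15.1%. The cause was not tested. Uncalled peaks reversed under another scaling or tool. SIRT7 peak 3 H3K18cr was at 0.021 with TMM, with or without the block, 0.017 with edgeR and 0.028 with DESeq2, SIRT2 peak 3 H3K18ac was at 0.037, 0.096 and 0.080, and SIRT2 peak 2 H3K18ac was at 0.011 with TMM. Leaving out 1 library gave -0.074 to 0.13 for SIRT2 peak 3 H3K18cr, -0.41 to 0.027 for SIRT2 peak 3 H3K18ac and -0.65 to 0.12 for SIRT2 peak 2 H3K18ac.

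Non-overlapping neighbours in the order of levels numbered 1 in MS275, 0 with the longest transcript, 2 without length and 1 to 2 without 1 library, and in colon 3, 4 other pairs with the longest transcript, and 4 to 5 without 1 library. The median log2 ratio to input at colon sirtuin peaks was 1.26 for H3K18cr, 1.11 with 10 reads added and 1.18 with the mean of the inputs, and 1.67 for H3K4me3, 1.31 with 10 reads added. Peak counts at other distances stayed within 1.5 times. The few reads of SIRT4 and the single inputs limit precision. TMM scaling with the block and DESeq2 with the block were chosen after seeing the data.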
